A study of Mus musculus with 3 samples.

Results

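The transcripts of 10 heat shock proteins of the cytosol and the mitochondrion were followed in RNA recovered with an antibody against YTHDF2. They were picked out by gene symbol from the 49997 genes of the count table, as a set drawn up with earlier results of these data known. Of the cytosolic chaperones, the set held the HSP70 genes Hspa1a, Hspa1b and Hspa8, the HSP110 gene Hsph1, the HSP90 genes Hsp90aa1 and Hsp90ab1, and the small heat shock protein gene Hspb1. Of the mitochondrial chaperones, it held Hspa9, Hspd1 and Hspe1.

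The cells were E14 mouse embryonic stem cells (ESCs) treated with doxycycline (Dox) for 24 h, in 1 input library and 2 YTHDF2 immunoprecipitation (IP) libraries. Per the study, the ESCs used for 2C-like reprogramming carry a Dox-inducible Dux transgene and a tdTomato reporter driven by the Mervl promoter. All 3 libraries share the Dox treatment. Neither cells without Dox nor an IP with a control antibody was analysed here, and a difference between IP and input therefore cannot be assigned to YTHDF2 apart from the antibody and the beads. The single input has no replicate, and nothing says whether the IP libraries came from separate cultures, so that p-values measure only the spread between the 2 IP libraries. The libraries held 35259827 to 36986994 counts. In the input, the 7 pluripotency markers lay between 301 and 5798 TPM (counts scaled for exon length and library depth), and the 5 markers of the 2C-like state between 4.36 and 867 TPM. Of 8 markers of other cell types, Thy1 stood at 31.9 TPM and the others at or below 2.47 TPM.

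Heat shock proteins are molecular chaperones that hold, fold or refold other proteins. Heat shock factor 1 induces several of them under stress, whereas Hspa8 and Hsp90ab1 are made in nearly all cells at all times. Hspa1a and Hspa1b are also among the earliest genes transcribed in the mouse embryo. YTHDF2 is a reader of N6-methyladenosine (m6A) that promotes the decay of methylated mRNAs. In heat-shocked cells it has been described to enter the nucleus and to preserve methylation in the 5′ untranslated region of stress-induced mRNAs. No heat shock is described for these libraries.

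The ends of the coding parts are shown because they carry what the cytosolic HSP70 and HSP90 proteins have in common, a short C-terminal tail that co-chaperones with tetratricopeptide repeats bind. Each line gives the last 30 coding bases on the transcript strand, 5′ to 3′, with the final 4 sense codons and the stop codon in capitals (RefSeq coding spans on GRCm38.p6, the assembly of mm10).
Hspa1a: tcaggacccaccatcGAGGAGGTGGATTAG
Hspa1b: tcaggacccaccatcGAGGAGGTGGATTAG
Hspa8: tcaggccccaccattGAAGAGGTGGATTAA
Hsp90ab1: gatgcctcgcgcatgGAAGAGGTGGATTAA
Hsp90aa1: gacacatcacgcatgGAAGAAGTAGACTAA
Hspd1: ggagggggtatgggaGGCGGCATGTTCTAA
These bases lie at chr17:34970000-34970029 (minus strand) for Hspa1a, chr17:34957079-34957108 (minus) for Hspa1b, chr9:40805088-40805117 (plus) for Hspa8, chr17:45568015-45568044 (minus) for Hsp90ab1, chr12:110691540-110691569 (minus) for Hsp90aa1 and chr1:55078288-55078317 (minus) for Hspd1. The lines of Hspa1a and Hspa1b are the same in every base, whereas Hspd1, a mitochondrial chaperonin, ends differently.

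Most of the heat shock protein transcripts were lower in the YTHDF2 IP than in the input. A gene counted as enriched or depleted when it differed more than 2-fold with an adjusted p-value below 0.05 (edgeR quasi-likelihood test, Benjamini-Hochberg adjustment over the 19601 genes tested). All 10 genes were tested. Of them, 2 were called depleted, Hsp90aa1 and Hspd1, where 14.0% of all genes tested were. No member was called enriched, where 15.2% of all genes were, and 0 members exceeded a fold of 2 upward at an unadjusted p-value under 0.05 or in DESeq2. At an adjusted p-value under 0.05 and any fold, 7 members fell, against 30.1% of all genes, and 2 rose, against 28.5%. The members had a median log2 fold change of -0.78, and all genes tested one of 0.0065 with quartiles of -0.72 and 0.81. The ratios of the single IP libraries to the input differed by less than 0.1 on the log2 scale for 8 of the 10 members, and by at most 0.485, for Hspa1b. With the dispersion fixed at 0.1, Hsp90aa1 alone passed the adjusted p-value.

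**Figure D1:**
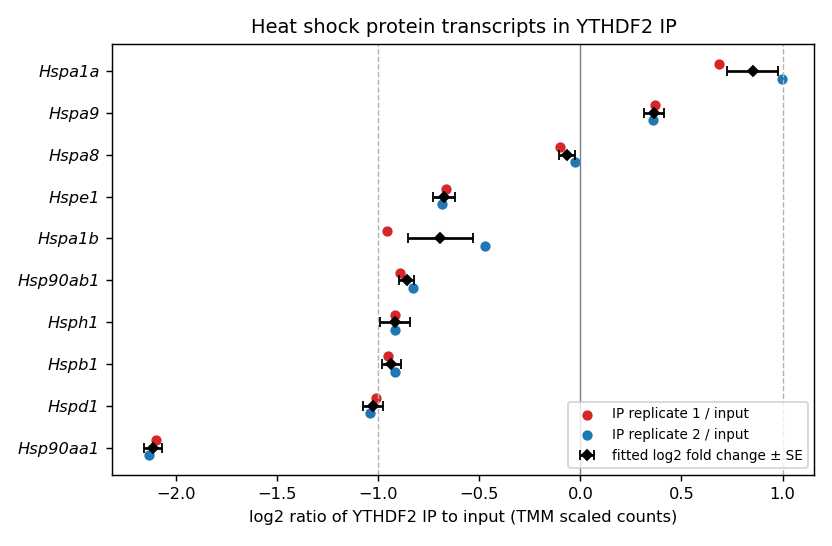
Log2 ratio of YTHDF2 IP to input for each of the 10 genes, in order of the fitted value. Red and blue points are the 2 IP libraries against the single input, and black diamonds with bars are the fitted log2 fold change ± SE; 8 genes lie below 0 in both IP libraries, and Hspa1a and Hspa9 above it.

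Hsp90aa1 and Hsp90ab1 encode the stress-inducible and the constitutive cytosolic HSP90, which mature kinases and steroid receptors. Hsp90aa1 (chr12:110691036-110696395, minus strand, 11 merged exons) was counted 108270 times in the input, against 25821 and 25592 times after IP. Both IP libraries lay far below the input, and the log2 fold change was -2.11 ± 0.0426 (SE, adjusted p = 1.51e-55), a 4.33-fold lower level. Hsp90ab1 (chr17:45567778-45573261, minus strand, 11 merged exons) was counted 211079 times in the input, against 115919 and 123271 times after IP. It fell 1.81-fold, by 0.86 ± 0.038 (SE) on the log2 scale (adjusted p = 3.6e-33), short of the fold threshold. The pair also changed relative to each other: the counts of Hsp90ab1 were 1.95 times those of Hsp90aa1 in the input and 4.49 and 4.82 times in the IP libraries. With the trend of all genes with GC content removed, the pair stood closer together, with log2 fold changes of -1.61 for Hsp90aa1 and -0.95 for Hsp90ab1. The coding parts of the pair were identical at 76.8% of aligned bases. Of the 150-base windows along the exons of Hsp90aa1, 45.1% had no exact second place on the main chromosomes, against 98.8% for Hsp90ab1. Reads that map to several places are by default left out of the counts, and the part this played in the ratio was not tested.

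Hspa8 encodes the constitutive cytosolic HSP70, which folds new proteins and uncoats clathrin vesicles. Its counts (chr9:40801276-40805202, plus strand, 9 merged exons) were 102098 in the input, against 97044 and 103635 after IP. Scaled for library size, the log2 ratios to the input were -0.10 and -0.03, just below 0 in both IP libraries. The log2 fold change of -0.07 ± 0.041 (SE) did not pass the test (adjusted p = 0.169), and its sign turned under other scalings, to 0.031 with library totals and 0.083 with TPM. Hsph1 encodes HSP110, a nucleotide exchange factor of HSP70 that helps to dissolve aggregates. It was counted 4821 times in the input, against 2606 and 2645 times after IP, and fell 1.89-fold (log2 fold change -0.92 ± 0.0735 SE, adjusted p = 6.16e-19).

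Hspb1 encodes a small heat shock protein that holds unfolded proteins without using ATP. It was counted 34696 times in the input, against 18306 and 19014 times after IP, a 1.91-fold lower level (log2 fold change -0.93 ± 0.0483 SE, adjusted p = 2.75e-29), and stood at -1.59 once the trend with GC content was removed. Its exons are 60.7% GC, against a median of 49.7% over all genes tested.

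The stress-inducible HSP70 genes Hspa1a and Hspa1b, which encode nearly the same protein, moved in opposite directions. Hspa1a (chr17:34969359-34972156, minus strand, 1 exon) was counted 708 times in the input, against 1162 and 1466 times after IP. It was higher in both IP libraries and rose 1.80-fold (log2 fold change 0.85 ± 0.128 SE, adjusted p = 2.45e-08), and stood at 0.27 once the trend of all genes with GC content was removed. Hspa1b (chr17:34956429-34959238, minus strand, 1 exon) was counted 656 times in the input, against 345 and 490 times after IP. It was lower in both and fell 1.62-fold (log2 fold change -0.69 ± 0.162 SE, adjusted p = 0.000171), a call at any fold that was lost without the filter on low counts (adjusted p = 0.0569, in a range of 3.17e-05 to 0.413 over its alternatives). Without the GC trend it stood at -1.12. The counts of Hspa1a were 1.08 times those of Hspa1b in the input and 3.37 and 2.99 times in the IP libraries. Summed, the pair was counted 1364 times in the input, against 1507 and 1956 times after IP, with a log2 fold change of 0.30 ± 0.112 (SE, adjusted p = 0.0194). The log2 ratio of the sum was 0.47 for IP replicate 2 but only 0.11 for IP replicate 1, so that this value rested largely on a single library.

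Reads of this pair can be told apart only over part of their length. Their coding parts were identical at 1918 of 1926 aligned bases, and their parts after the stop codon at 383 of 546. Of the 150-base windows of Hspa1a, 57.8% had no exact second place on the main chromosomes, and of those of Hspa1b 59.6%. Reads that mapped to several places were left out of the counts, and the part this played in the difference between the genes was not tested. With the alternate scaffolds of the assembly included, the share was 0% for both, and whether the genome the authors aligned to held those scaffolds is not given in the sources used here.

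The motif GGACT, the most common form of the m6A consensus, was searched on the transcript strand of the merged exons. It occurred 6 times in Hspa1a and 3 times in Hspa1b, and the 3 coding sites were the same in both. The 2.14 sites per kb of Hspa1a and the 1.07 of Hspa1b compare with a median of 1.03 over all genes tested. The 3 sites of Hspa1a past its stop codon, which Hspa1b lacks, are shown with 10 bases on each side and the motif in capitals, named by their distance in bases past the end of the coding part.
Hspa1a 54: gtggccttgaGGACTgtcattattt
Hspa1a 377: ctttgtgtttGGACTctcccctggg
Hspa1a 509: ttgcactgtaGGACTtgtttccagg
They lie on the minus strand at chr17:34969932-34969956, chr17:34969609-34969633 and chr17:34969477-34969501. A match describes the letters alone, as no methylation was measured here.

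**Figure D2:**
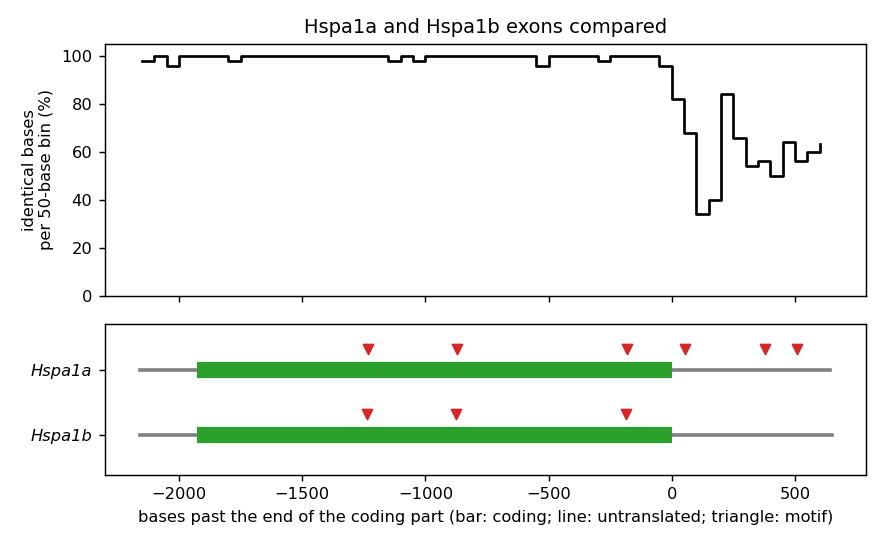
The exons of Hspa1a and Hspa1b by distance in bases from the end of the coding part. The upper panel gives the percent of identical bases in 50-base bins, at least 96% up to the end of the coding part and 34 to 84% past it; the lower panel marks coding parts (bars), untranslated parts (lines) and GGACT motifs (triangles), 3 of which lie past the stop codon in Hspa1a and none in Hspa1b.

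Among the other members, GGACT was found 5 times in Hsp90aa1 and 3 times in Hsph1, all in the coding parts. It was found 2 times each in Hspa9 and Hspd1, once each in Hsp90ab1, Hspe1 and Hspb1, and 0 times in Hspa8, where 11.6% of all genes tested had none. Per kb, Hsp90aa1, Hspe1 and Hspb1, which fell, had 1.75, 1.30 and 1.11 sites. Hsph1, Hspd1 and Hsp90ab1, which also fell, had 0.79, 0.77 and 0.40, and Hspa9, which rose, had 0.66. A relation between motif density and the change in the IP was not tested.

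Of the mitochondrial chaperones, Hspa9 rose and the chaperonin pair fell. Hspa9 encodes the mitochondrial HSP70 (mortalin), which pulls proteins through the inner membrane. It was counted 23413 times in the input, against 30826 and 31095 times after IP, a 1.29-fold rise (log2 fold change 0.36 ± 0.0492 SE, adjusted p = 7.84e-10), which became 0.63 without the GC trend. Hspd1 encodes HSP60, the chamber in which imported proteins fold. It was counted 28954 times in the input, against 14657 and 14592 times after IP and fell 2.04-fold (log2 fold change -1.03 ± 0.0499 SE, adjusted p = 7.41e-31). Its log2 fold change came inside the fold threshold with library totals (-0.93), with TPM (-0.88) and with the GC trend removed (-0.89). With a dispersion fixed at 0.1 it stayed past that threshold but missed the adjusted p-value (0.185, the highest over its alternatives, of which the lowest was 3.82e-90). Hspe1 encodes HSP10, the lid of that chamber. It was counted 15930 times in the input, against 10245 and 10267 times after IP and fell (log2 fold change -0.68 ± 0.0545 SE, adjusted p = 8.89e-19). Hspd1 (chr1:55077833-55088243, minus strand) and Hspe1 (chr1:55088148-55091317, plus strand) lie head to head and share 96 exonic bases. The counts of Hspd1 were 1.82 times those of Hspe1 in the input and 1.43 and 1.42 times in the IP libraries.

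By fitted log2 fold change, the order from the highest to the lowest was Hspa1a, Hspa9, Hspa8, Hspe1, Hspa1b, Hsp90ab1, Hsph1, Hspb1, Hspd1 and Hsp90aa1. The range of Hspa1b over the IP libraries overlapped those of Hspe1, Hsp90ab1, Hsph1 and Hspb1, so that its place among them is not settled, and those of Hsph1 and Hspb1 were only 0.0013 apart. The IP ratios of Hsp90aa1 lay at least 1.06 below those of its neighbour Hspd1. This order was not kept with the GC trend removed, where Hspa9 (0.63) stood above Hspa1a (0.27), and Hspb1 (-1.59) next to Hsp90aa1 (-1.61). The 7 cytosolic members had a median of -0.86, with 1 that rose and 5 that fell, and the 3 mitochondrial members one of -0.68, with 1 that rose and 2 that fell.

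The members together took a smaller share of the IP libraries. They made up 1.43% of the input counts, 0.899% of IP replicate 1 and 0.925% of IP replicate 2, with 95% Wilson intervals of 1.431 to 1.438%, 0.896 to 0.902% and 0.922 to 0.928% that cover counting error only. The HSP90 pair accounted for 0.863% of the input and 0.402 and 0.415% of the IP libraries. Within the family, Hsp90aa1 dropped from 20.4% of the members' counts to 8.15 and 7.71%, while Hspa8 went from 19.2% to 30.6 and 31.2% and Hspa9 from 4.41% to 9.73 and 9.36%.

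Scaled for length, Hsp90ab1 had the highest level in the input, at 4685 TPM, followed by Hspa8 at 2700, Hspb1 at 2138 and Hsp90aa1 at 2114 TPM. In the IP libraries, Hsp90ab1 (2801 and 2919 TPM) and Hspa8 (2794 and 2925 TPM) were level, and Hsp90aa1 stood at 549 and 533 TPM. Hspa1a was at 14.1 TPM in the input and 25.2 and 31.1 TPM in the IP libraries, and Hspa1b at 13.0, 7.44 and 10.4 TPM, so that the stress-inducible pair was the lowest of the family throughout. Levels of members with close copies may be too low. Only 35.2% of the windows of Hspa8, 45.1% of Hsp90aa1 and 46.6% of Hspb1 had no second place on the main chromosomes. The share was 98.8% for Hsp90ab1 and 99.3% for Hspa9. For Hspa1a and Hspa1b it was 57.8 and 59.6%, and 0% with the alternate scaffolds included. The place of this pair as the lowest may therefore be affected, which was not tested.

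**Figure D3:**
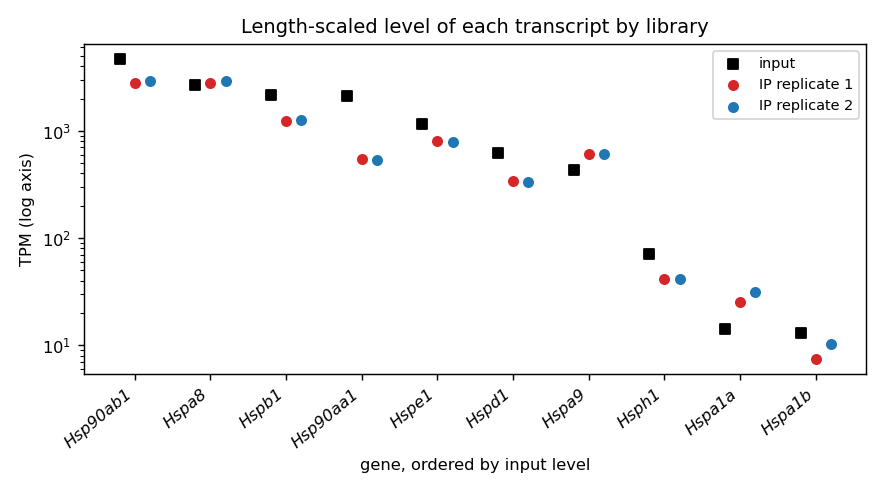
Level of each gene in TPM (log axis) in the input and the 2 IP libraries, ordered by the input level. Hsp90aa1 falls from 2114 TPM in the input to 549 and 533 TPM, while Hspa8 stays between 2700 and 2925 TPM.

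Genes that work with these chaperones moved in both directions. In all the lists, counts past the fold threshold are to be read against the 14.0% of all genes tested that were depleted and the 15.2% enriched. Counts at any fold, at an adjusted p-value under 0.05, compare with 30.1% of all genes lower and 28.5% higher. No list was tested against the other genes. Of 17 HSP90 co-chaperones, 4 fell and 1 rose past the fold threshold, 4 rose and 12 fell at any fold, and the median was -0.60. Chordc1, a zinc-binding HSP90 partner, was the lowest (3214 counts in the input, 976 and 771 in the IP libraries, log2 fold change -1.92), and Ttc4 the highest (1959, 5634 and 5940 counts, 1.52). Of 9 nucleotide exchange factors and other co-factors of HSP70, 2 fell and 2 rose past the fold threshold, 4 rose and 4 fell at any fold, and the median was 0.28. Their extremes were St13, the HSP70-interacting protein Hip (11143, 4105 and 4245 counts, -1.46), and Bag5, a nucleotide exchange factor (854, 2620 and 2717 counts, a 3.04-fold rise).

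The cytosolic chaperonin TRiC with its partner prefoldin had the lowest median of the lists. Of the 15 genes tested in this list, 7 fell past the fold threshold, against 14.0% of all genes tested, and 1 rose, against 15.2%. At any fold 11 fell, against 30.1%, and 1 rose, against 28.5%. The median was -0.88, and the extremes were the prefoldin subunits Vbp1 (5342, 1385 and 1204 counts, -2.08) and Pfdn1 (6376, 15464 and 15406 counts, 1.24). The TRiC subunits all lay below 0, from -0.39 to -1.80, whereas those of prefoldin ranged from -2.08 to 1.24. Of 11 other mitochondrial chaperones and proteases, 1 rose past the fold threshold, against 15.2% of all genes tested, and 0 fell, against 14.0%. At any fold 3 rose, against 28.5% of all genes tested, and 6 fell, against 30.1%. Their extremes were the co-factors of mitochondrial HSP70 Grpel2 (1324, 3327 and 3260 counts, 1.27) and Grpel1 (3683, 2201 and 2289 counts, -0.75).

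Of 7 other HSP70 and HSP110 genes, 1 rose past the fold threshold, Hspa12b (39, 94 and 104 counts, 1.30), and the lowest was Hspa4 (27777, 15650 and 17020 counts, -0.81). Of 9 other genes listed as small heat shock proteins, 1 rose, Hspb8 (1135, 2798 and 2971 counts, 1.31), and 1 fell, Hspb11 (106, 12 and 37 counts, -2.15). Whether Hspb11 belongs to that family beyond its symbol was not examined, and its single log2 ratios were far apart, at -3.12 and -1.56. Of the 6 heat shock factors and regulators 5 were tested, of which 2 fell. Hsf1, the main inducer of the family, was counted 2247 times in the input, against 3354 and 3499 times after IP (log2 fold change 0.57 ± 0.0815 SE, adjusted p = 4.24e-09), and Hsf2 was the lowest, with 1519, 558 and 586 counts (-1.45). The medians were -0.19 for the HSP70 and HSP110 genes, -0.10 for the factors and 0.41 for the genes listed as small heat shock proteins, of which 7 did not pass the test at any fold. At any fold, 2 rose and 3 fell of the HSP70 and HSP110 genes, and 1 rose and 2 fell of the factors. Of all genes tested, 28.5% rose and 30.1% fell at any fold, and 15.2% rose and 14.0% fell past the fold threshold.

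**Figure D4:**
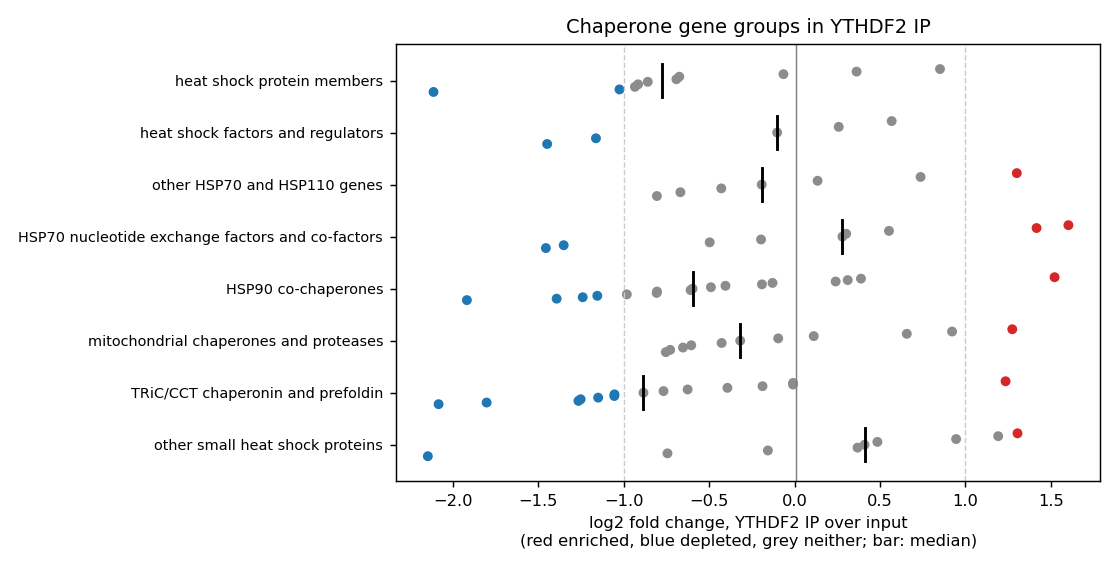
Log2 fold change of YTHDF2 IP over input for the 10 heat shock protein genes and 7 lists of related genes, with 1 point per gene tested, black bars for medians and dashed lines at a fold of 2. The members have a median of -0.78, TRiC and prefoldin one of -0.88, the HSP70 co-factors one of 0.28 and the other small heat shock proteins one of 0.41.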

How the data were processed

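RIP-seq libraries of E14 ESCs treated with Dox for 24 h, 1 input and 2 YTHDF2 IP, were grouped by their titles. The labels describe an IP of purified total RNA and the methods one of a cell lysate, and the counts cannot settle which. Per the submitters' processing notes, the tools were fastp 0.19.4, HISAT2 2.2.1 and DESeq2 1.40.2, with mm10. The deposited values are raw counts per gene from featureCounts 2.0.3, which per the file headers counted the mates of a pair singly and without strand, so that sampling noise exceeds what the counts imply. By default it leaves out reads that map to several places or overlap several genes.

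Counts were analysed with edgeR 4.0.16 in R 4.3.3: filterByExpr (19601 of 49997 genes left), TMM, robust dispersions, the quasi-likelihood test, and p-values adjusted after Benjamini and Hochberg. Only the IP libraries give residual freedom (1 degree), with a common dispersion of 0.00538. Fitted values use a prior count of 0.125, and single ratios add 0.5 to each count. Dividing the fitted change by the root of its F statistic gave the SE. The test was also run on simulated counts with known changes. TPM used exon lengths on the main chromosomes, since the deposited lengths of Hspa1a and Hspa1b also sum alternate scaffolds. Window uniqueness, motifs and identities were computed from the GRCm38.p6 sequence.

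All 10 members were named, and of each related list the highest and lowest gene tested. No gene of like pattern was named, since 3 libraries give only 2 ratios per gene. The members and lists were chosen with earlier results of these data known. The alternatives were RLE and total count scaling, TPM scaling, DESeq2 1.42.0, no filter, a fixed dispersion of 0.1, halved counts, a GC trend removed, Hspa1a and Hspa1b summed, and each IP library left out.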

Additional observations from a re-analysis of the deposited data

How the results depend on the processing

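No paired analysis was possible because input was sequenced once and carries no replicate number. No member was called enriched under the 8 alternatives that gave a test. Removal of the GC trend and leaving out an IP library gave values only, with no calls. The number called depleted fell from 2 to 1 under total count scaling, a fixed dispersion of 0.1 and TPM scaling, each of which left out Hspd1, and was 2 under the other 5 with a test. The median log2 fold change of the members was -0.63 under TPM scaling, which shifted the median of all genes by 0.148, and ranged from -0.90 to -0.76 with either IP library left out. Hspa8 turned positive under total count scaling (0.031) and TPM scaling (0.083), and the other 9 members kept their sign under every alternative run. With the trend in GC content removed, Hspa1a stood at 0.27, Hsp90aa1 at -1.61, Hspb1 at -1.59, Hspa1b at -1.12 and Hspd1 at -0.89. A dispersion of 0.1, far above that seen between the IP libraries, left 1 member past an adjusted p-value of 0.05, Hsp90aa1 (adjusted p = 0.00211, the highest over its alternatives), and cut the calls over all genes from 2973 enriched and 2743 depleted to 1577 and 1531. Of all calls, 52.0% were enriched in the main analysis and 62.2% under TPM scaling. The spread rests on 2 IP libraries and says nothing of the spread between inputs.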

Other observations

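Among the annotated pseudogenes of the members, Hspd1-ps3 was counted 465 times in the input, against 162 and 297 times after IP (log2 fold change -1.06, adjusted p = 4.9e-05 by edgeR). Hsp25-ps1, a copy of Hspb1, had 155, 102 and 103 counts (-0.64, adjusted p = 0.0686). Exchange of reads between these copies and their parent genes was not tested.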
